A study of Homo sapiens with 9 samples.

Results

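The 9 surface antigens described here are each a target of antibody-drug conjugates, in clinical or preclinical work, other than those given in this study: CEACAM5, CEACAM6, MSLN, PVRL4 (now named NECTIN4), STEAP1, FOLR1, MET, TFRC and CD276. They were chosen by their roles and by their RNA levels in the PBS, P-DXd and T-DXd columns, and were found by gene symbol in both deposited count tables. All 9 were present among the 16008 genes that the tables share. An antibody-drug conjugate binds a protein on the cell surface, is taken up and releases its payload inside the cell, so it depends on the antigen being present on tumor cells. CEACAM5, CEACAM6, MSLN and FOLR1 are held in the membrane by a glycosylphosphatidylinositol (GPI) anchor, whereas PVRL4, STEAP1, MET, TFRC and CD276 span it. The values are levels of RNA, and these data hold no measurement of protein.

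RNA-Seq had been performed on subcutaneous xenografts of PC3, an established human prostate cancer cell line that grows without androgen, at the end of treatment. Per the series record, cells were placed with Matrigel in the flanks of male NSG mice aged 11 weeks, which lack T, B and NK cells, and weekly retro-orbital treatment for 5 cycles began at a tumor volume of 90 mm3. The study's methods give this age, starting volume and number of cycles for a separate experiment with T-DXd alone at a higher dose. For the experiment with both conjugates at 5 mg/kg they give other values of all 3. Of 9 libraries, 3 came from mice given PBS as vehicle, 3 were titled P-DXd and 3 were titled T-DXd, both conjugates at 5 mg/kg. P-DXd (patritumab deruxtecan) binds HER3, T-DXd (trastuzumab deruxtecan) binds HER2, and the payload of both is deruxtecan, an inhibitor of topoisomerase I. The treatment field of all 6 treated libraries names the conjugate that the title does not, so each group is named by its titles, as P-DXd-titled or T-DXd-titled. Setting all 6 treated libraries against PBS gives a result that holds under either record.

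Libraries held 54481702 to 125538606 counts, with every PBS library above every treated one. The epithelial markers KRT8, KRT18, KRT19, EPCAM and CDH1 were all present, with a summed level of 1668 to 2345 CPM (counts scaled to a common library size) in PBS and 3127 to 3664 CPM in treated libraries. With all treated libraries, 2 of these 5 were called higher by the rule given below and 3 were not called. Mean KRT8 was 465 CPM in PBS and 1150 CPM in treated libraries, whereas mean CDH1 was 244 and 269.5 CPM. Host cells also contribute RNA to a xenograft, and in bulk tissue fewer cells of a type and less RNA per cell cannot be told apart. All genes counted are human, so mouse RNA enters only through reads that also match human genes. The sums below therefore do not measure amounts of host cells. Summed skeletal muscle markers (8 of 8 listed) were 0.899 to 40.4 CPM in PBS and 66.1 to 3688 CPM in treated libraries, highest in P-DXd-titled replicate 2. Summed macrophage markers (7 of 8 listed) were 8.55 to 10.3 CPM in PBS and 19.9 to 38.9 CPM in treated libraries. Summed fibroblast markers (8 of 8) were 1055 to 2056 and 1219 to 2215 CPM. By the rule for calling genes given below, 4 of 6 macrophage markers tested with all treated libraries were higher and 1 lower. Of all genes, 15.2% were higher and 17.1% lower. Mean LYZ rose from 1.07 to 10.3 CPM, while mean EMR1 fell from 2.54 to 1.06 CPM. Of 8 fibroblast markers, 4 were higher and 0 lower. COL1A1 was the largest part of that sum, at means of 975 CPM in PBS and 1081 CPM in treated libraries. Endothelial markers (5 of 6) summed to 4.42 to 8.37 CPM in PBS and 5.23 to 9.86 CPM in treated libraries. Their part in the levels of the 9 antigens was not tested.

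The 9 antigens moved in different directions. CEACAM6, CEACAM5 and FOLR1 were scarce in PBS xenografts and many times more abundant in both treated groups, PVRL4 was higher by a log2 fold change of 0.98, CD276 and MET were moderately higher, and TFRC, MSLN and STEAP1 were lower. A gene was called at an adjusted p of at most 0.05 and a fold change of at least 1.5 in edgeR's quasi-likelihood test across all genes. In P-DXd-titled against PBS, 6 of the 9 antigens met this, where 25% of 14945 genes tested did. In T-DXd-titled against PBS it was also 6 of 9, where 28.6% of 14915 genes did, and for all 6 treated libraries 6 of 9, where 32.2% of 15070 genes did. Called antigens were CEACAM5, CEACAM6, FOLR1 and PVRL4 on the higher side (15.2% of all genes) and TFRC and MSLN on the lower side (17.1%), and CD276, MET and STEAP1 were not called in any of the 3 comparisons. All 9 had treated libraries entirely above or entirely below the PBS libraries, as had 50.5% of all genes. The antigens were chosen with results of these data in view, so these counts are a description, nothing is read from them, and no p-value is attached to an antigen.

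**Figure D1:**
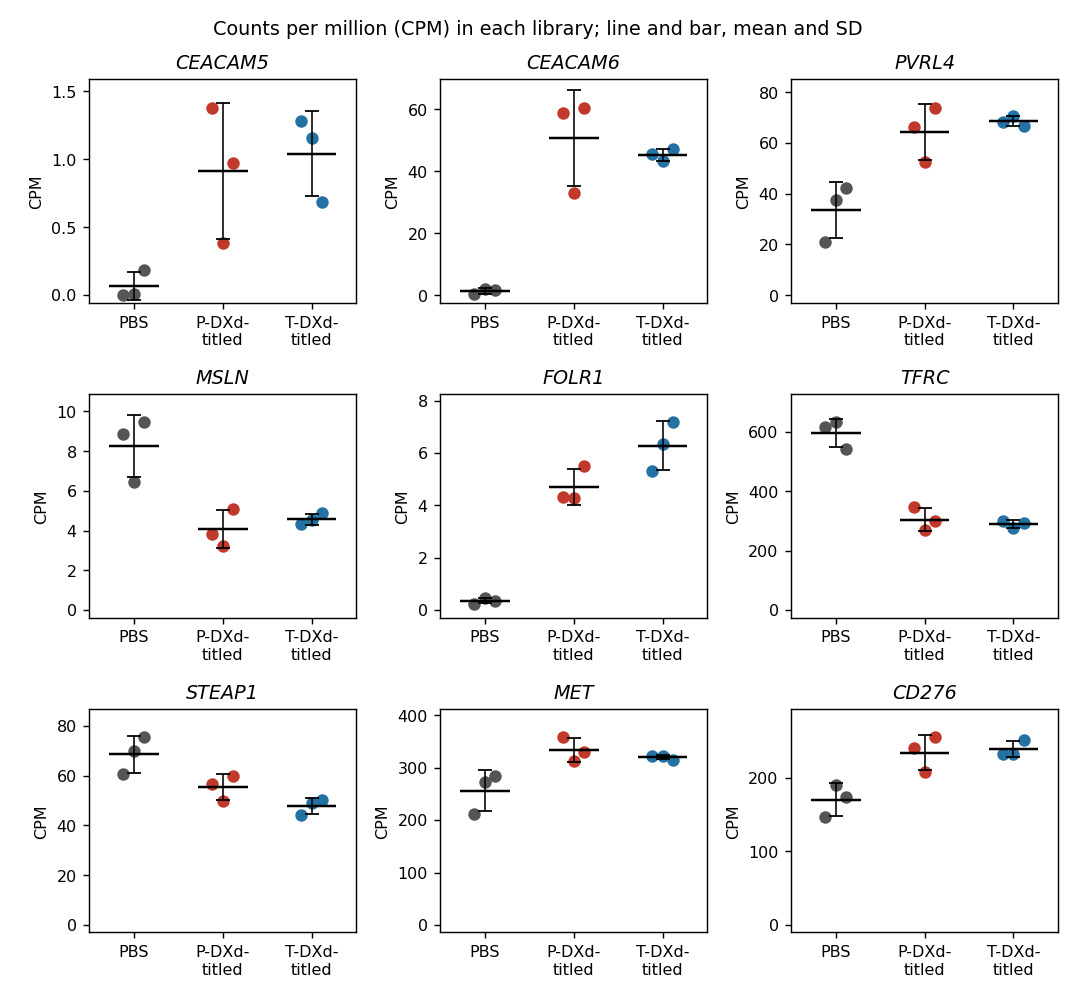
CPM of each antigen (vertical axis, linear, a separate scale per panel) in the 3 libraries of each group (horizontal axis), with 1 point per library and the group mean and SD as a line and bar. In every panel the 6 treated libraries lie entirely on one side of the 3 PBS libraries, above them for CEACAM5, CEACAM6, PVRL4, FOLR1, MET and CD276 and below them for MSLN, TFRC and STEAP1.

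CEACAM5 and CEACAM6 are carcinoembryonic antigen-related adhesion molecules of epithelial surfaces and are used as tumor markers and targets in carcinomas of the gut, lung and pancreas. The tables list them side by side on chromosome 19, with 21166 bases and no other listed gene between them. CEACAM5 (ENSG00000105388.10) is listed from 42212504 to 42233718 and CEACAM6 (ENSG00000086548.8) from 42254885 to 42276113. These are coordinates of the tables, which name no build. The processing record names GRCh38.p13, but the listed coordinates do not match the GRCh38.p14 positions given below. The 250 bases before the start of each gene are shown because both genes were low in PBS and higher in treated tumors, and the sequences are close relatives. They are from RefSeq, build GRCh38.p14, plus strand, at chr19:41708376-41708625 and chr19:41755280-41755529, with the E-box CACGTG in capitals.
CEACAM5: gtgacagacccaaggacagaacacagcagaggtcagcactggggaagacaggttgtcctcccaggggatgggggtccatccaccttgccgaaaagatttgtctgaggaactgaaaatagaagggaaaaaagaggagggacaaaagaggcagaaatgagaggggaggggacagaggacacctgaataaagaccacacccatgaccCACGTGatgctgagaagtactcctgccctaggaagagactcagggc
CEACAM6: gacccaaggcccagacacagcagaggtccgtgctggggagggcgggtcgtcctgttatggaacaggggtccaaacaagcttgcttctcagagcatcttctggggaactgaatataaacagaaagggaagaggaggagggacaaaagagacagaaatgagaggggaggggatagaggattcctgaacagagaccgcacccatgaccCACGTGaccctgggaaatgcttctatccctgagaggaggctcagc
Aligned to each other, the windows were identical at 189 of 242 aligned bases (78.1%). The longest run they share is cagaaatgagaggggagggga, of 21 bases, and the run that holds the E-box is cacccatgaccCACGTGa, of 18 bases. The E-box lies at positions -46 to -41 before the start of CEACAM5 and -45 to -40 before that of CEACAM6. Of 35116 RefSeq windows of the 250 bases before a start, 6.34% hold CACGTG, a palindrome that reads the same on both strands. The window of CEACAM6 also holds 1 match to the GC box GGGCGG and 1 to TATAAA, on either strand, which are present in 42.6% and 10.7% of windows, and that of CEACAM5 holds neither. Each match is a description of letters and was not tied to any factor.

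CEACAM6 had 23, 257 and 196 counts in PBS replicates 1 to 3, which are 0.261, 2.01 and 1.75 CPM. P-DXd-titled replicates 1 to 3 had 58.8, 32.9 and 60.6 CPM. T-DXd-titled replicates 1 to 3 had 45.7, 43.3 and 47.1 CPM. Treated and PBS libraries are far apart, and the lowest treated library is P-DXd-titled replicate 2. Means were 1.34 ± 0.941 CPM in PBS, 50.8 ± 15.5 CPM for P-DXd-titled tumors and 45.4 ± 1.90 CPM for T-DXd-titled tumors (SD, n = 3 each). The log2 fold change was 5.24 (SE 0.69) for P-DXd-titled, 5.06 (SE 0.63) for T-DXd-titled and 5.14 (SE 0.52) for all treated libraries against PBS. This was the largest difference among the 9 antigens in each comparison with all libraries. Without PBS replicate 3, all other libraries gave 5.35 for CEACAM6, below the value then fitted for CEACAM5.

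CEACAM5 was near the limit of detection in vehicle tumors, with 0, 1 and 21 counts in PBS replicates 1 to 3. A count of 0 in PBS replicate 1 allows up to 0.0341 CPM, for counting error only. P-DXd-titled replicates had 116, 21 and 64 counts (1.38, 0.385 and 0.974 CPM), and T-DXd-titled replicates had 93, 86 and 45 counts (1.28, 1.16 and 0.685 CPM). PBS replicate 3, at 0.187 CPM, came nearest to the treated libraries, and the lowest of these was again P-DXd-titled replicate 2. Group means were 0.0649 ± 0.106, 0.914 ± 0.501 and 1.04 ± 0.314 CPM, and the log2 fold changes were 3.78 (SE 1.16), 3.95 (SE 1.06) and, with all treated libraries, 3.86 (SE 0.89). Their size rests on PBS replicate 3, without which they were 7.26, 7.44 and 7.32, fitted on 0 and 1 counts in PBS and thus no bound. CEACAM5 remained far below CEACAM6, at 0.279 against 18.5 CPM per kilobase of transcript over all treated libraries.

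The 2 genes share sequence with relatives. Of 50-base windows of the CEACAM5 transcript, 6.14% occur in another protein-coding gene, and of CEACAM6 8.21%, so reads could be shared. How many reads were counted for the wrong gene was not determined, and CEACAM5 had far fewer counts than CEACAM6. CEACAM6 is also a protein of human neutrophils, but PC3 cells were the only human cells placed in these mice, so any neutrophils were mouse cells. Of 7 neutrophil markers, CEACAM8, MPO and ELANE were not among the genes analysed here, and the other 4 summed to 148 to 611 CPM in PBS and 1176 to 1658 CPM in treated libraries. Nearly all of this was S100A9, an alarmin that epithelial cells express too, at 136 to 600.2 CPM in PBS and 1161 to 1626 CPM in treated libraries. Whether any mouse neutrophil RNA was counted for CEACAM6 was not tested.

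Neighbouring genes and the rest of the family were examined next. Within 500 kb of the pair, 25 other genes are reported for all treated libraries, of which 4 rose and 21 were not called, with a median log2 fold change of 0.074 beside -0.014 for all genes. The same comparison had 15.2% of all genes higher and 17.1% lower, which is the background for this count and for each gene list that follows. CEACAM3, a receptor of granulocytes that lies next to CEACAM6, rose by a log2 fold change of 3.55 (SE 0.80, adjusted p 0.00357), on 0, 0 and 4 counts in PBS and 7 to 15 counts in treated libraries. Without PBS replicate 2 its value was 2.94, and without PBS replicate 3 both remaining PBS libraries had 0 counts, so no fold change is given. CEACAM6 had 1792 to 4935 counts in treated libraries, and whether any CEACAM3 counts were reads of CEACAM6 was not determined. The other 3 that rose were CYP2S1 (1.31, SE 0.13), DEDD2 (0.71, SE 0.14) and RABAC1 (0.68, SE 0.11). CEACAM1, a transmembrane member of the family, rose from 5.09 CPM in PBS to 9.99 CPM in P-DXd-titled tumors and 10.9 CPM in T-DXd-titled tumors (1.04, SE 0.16, adjusted p 0.000416). Of 10 other family members written down, 3 were tested, of which 2 rose and 1 was not called, and CEACAM7 and CEACAM8 were not analysed here.

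**Figure D2:**
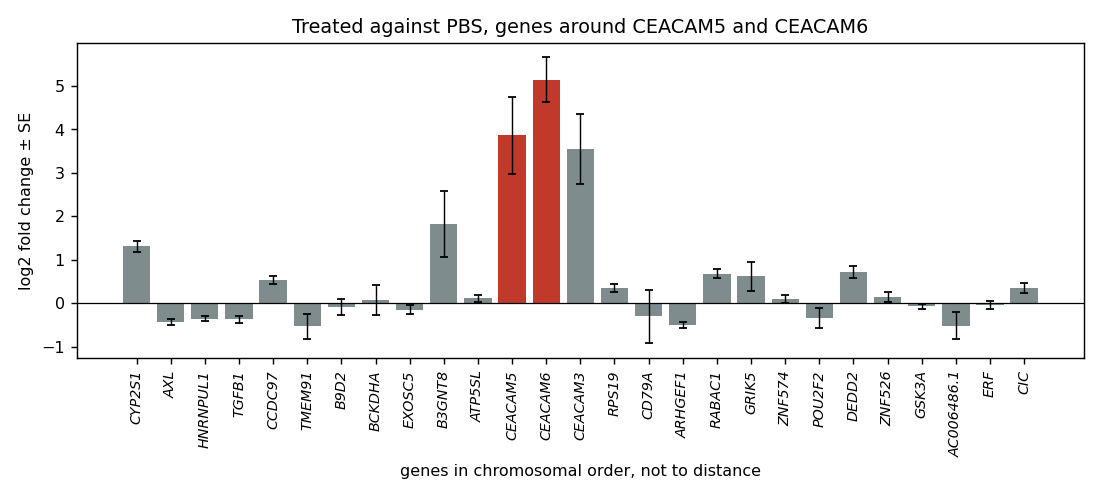
Log2 fold change of all treated libraries against PBS (vertical axis, bars from 0, error bars SE) for 27 genes within 500 kb of, and including, CEACAM5 and CEACAM6 (horizontal axis, chromosomal order, not to distance). CEACAM5 and CEACAM6 (red) stand at 3.86 and 5.14 and CEACAM3 beside them at 3.55, while most other genes (gray) lie near 0.

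FOLR1 (ENSG00000110195.7; chromosome 11, 71900602 to 71907345 as listed) encodes folate receptor alpha, which brings folate into cells and is the target of conjugates for ovarian cancer. PBS replicates 1 to 3 had 0.250, 0.445 and 0.356 CPM, from 22, 57 and 40 counts. P-DXd-titled replicates had 4.32, 4.28 and 5.49 CPM, and T-DXd-titled replicates had 5.30, 6.36 and 7.17 CPM. Both treated groups are far above PBS, and they overlap each other. Means were 0.350 ± 0.0976, 4.70 ± 0.688 and 6.28 ± 0.938 CPM. The log2 fold changes were 3.74 (SE 0.31) and 4.15 (SE 0.28), and 3.95 (SE 0.27) with all treated libraries. The fold change of FOLR1 was smaller than that of CEACAM6, with a smaller SE.

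Other genes of folate handling were compared next. Of 20 tested, 3 rose (15.2% of all genes did), 8 fell (17.1% of all genes did) and 9 were not called, and their median log2 fold change was -0.44, against -0.014 over all genes. Among those that rose were ALDH1L1, which oxidizes formyl-tetrahydrofolate (0.418 CPM in PBS, then 4.53 in P-DXd-titled tumors and 5.13 in T-DXd-titled tumors, with a log2 fold change of 3.53, SE 0.25, adjusted p 4.26e-06), and the secreted receptor FOLR3 (0.332, 0.722 and 1.24 CPM, 1.56, SE 0.37, adjusted p 0.00495). TYMS, the thymidylate synthase that consumes folate in DNA synthesis, fell from 68.6 CPM to 16.1 and 12.97 CPM (-2.24, SE 0.23, adjusted p 3.24e-05). GGH, which removes glutamates from folate, fell from 61.9 to 20.6 and 17.3 CPM (-1.71, SE 0.19, adjusted p 4.25e-05). MTHFD2L, a mitochondrial folate enzyme, was 42.0 CPM in PBS and 14.4 and 13.3 CPM after treatment (-1.60, SE 0.25, adjusted p 0.000365), and without PBS replicate 1 its value was -0.996. FOLR2 was not analysed here.

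PVRL4 (ENSG00000143217.7; chromosome 1, 161040785 to 161059389 as listed) encodes nectin-4, a cell adhesion protein and the target of conjugates for urothelial cancer. Its levels were 21.04, 37.6 and 42.2 CPM in PBS replicates 1 to 3. After treatment they were 66.5, 52.4 and 74.0 CPM in P-DXd-titled and 68.4, 70.8 and 66.9 CPM in T-DXd-titled replicates. PBS replicate 1 is the lowest of all, and the T-DXd-titled libraries lie within a narrow range. Means were 33.6 ± 11.1, 64.3 ± 11.0 and 68.7 ± 1.99 CPM. The log2 fold changes were 0.95 (SE 0.26), 1.03 (SE 0.24) and, for all treated libraries, 0.98 (SE 0.19).

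Other nectins, nectin-like molecules and afadin were compared next. Of 9 genes, 4 rose, 2 fell and 3 were not called, with a median log2 fold change of -0.09. The nectin-like molecule CADM1 rose from 4.21 to 23.0 and 31.2 CPM (2.69, SE 0.24, adjusted p 1.34e-05), CADM4 from 16.0 to 37.6 and 37.9 CPM (1.24, SE 0.28, adjusted p 0.00381), and CADM3, at 0.489 CPM or less in each group mean, by 3.25 (SE 0.78, adjusted p 0.00492, and 4.76 without PBS replicate 3). Among the nectins proper, PVRL2 rose from 51.6 to 96.3 and 94.2 CPM (0.89, SE 0.14, adjusted p 0.000452). PVRL1 fell from 229 to 97.0 and 97.1 CPM (-1.24, SE 0.19, adjusted p 0.000353), and PVRL3 fell from 28.6 to 19.8 and 17.6 CPM (-0.62, SE 0.09, adjusted p 0.000179). PVRL2 and PVRL4 were higher and PVRL1 and PVRL3 lower in treated tumors.

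MSLN (ENSG00000102854.10; chromosome 16, 810762 to 818865 as listed) encodes mesothelin, a surface protein of mesothelial cells that binds the mucin MUC16 and is found on mesothelioma, ovarian and pancreatic cancers. PBS replicates had 8.84, 6.47 and 9.44 CPM. P-DXd-titled replicates had 3.84, 3.25 and 5.11 CPM, and T-DXd-titled replicates had 4.31, 4.53 and 4.87 CPM. The lowest PBS library and the highest treated library are separated by little. Means were 8.25 ± 1.57, 4.07 ± 0.952 and 4.57 ± 0.283 CPM, with log2 fold changes of -1.01 (SE 0.25), -0.85 (SE 0.19) and -0.93 (SE 0.17). MSLN was thus the only GPI-anchored antigen of the 4 that was lower after treatment. The mesothelial markers WT1, UPK3B, LRRN4 and CALB2 summed to 9.69 to 10.8 CPM in PBS and 7.30 to 9.95 CPM in treated libraries, and their part in MSLN was not tested. Within that sum CALB2 rose from 0.427 CPM in PBS to 2.88 CPM over all treated libraries (2.74, SE 0.27, adjusted p 2.08e-05). WT1 fell from 5.61 to 2.86 CPM (-0.97, SE 0.21, adjusted p 0.00236), LRRN4 fell from 1.98 to 0.517 CPM (-1.93, SE 0.31, adjusted p 0.000486), and UPK3B was 2.24 and 2.14 CPM (-0.07, SE 0.24, adjusted p 0.813). MUC16 was 2.66 CPM in PBS and 5.64 and 4.98 CPM in the treated groups (0.99, SE 0.64, adjusted p 0.206), and without PBS replicate 3 its value was 1.73.

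Because 4 of the antigens carry a GPI anchor, the genes that build and attach it were listed. Of 28 tested, 3 rose, 3 fell and 22 were not called, and the median log2 fold change was 0.25. DPM3, a subunit of the enzyme that makes dolichol-phosphate mannose, rose by 1.39 on the log2 scale (SE 0.15, adjusted p 3.48e-05). PGAP3, which remodels the lipid of the anchor, rose 2.46-fold (log2 SE 0.18, adjusted p 0.00016), and PIGQ, a subunit of the enzyme of the first step, by 0.81 on the log2 scale (SE 0.10, adjusted p 7.36e-05). PIGL, which acts at the next step, fell by 1.12 on the log2 scale (SE 0.15, adjusted p 0.00015). PIGW fell by 0.68 (adjusted p 0.00192), which was 0.43 without PBS replicate 1, and PGAP1 fell by 0.61 (adjusted p 0.000169), which was 0.57 without T-DXd-titled replicate 3, both then under the fold change minimum.

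TFRC (ENSG00000072274.8; chromosome 3, 195754054 to 195809060 as listed) encodes the transferrin receptor, which carries iron into cells and is abundant on dividing cells. Per kilobase of transcript it was the most abundant of the 9 antigens in PBS xenografts, and PBS replicates 1 to 3 had 616, 633 and 543 CPM. P-DXd-titled replicates had 346, 268 and 300.2 CPM, and T-DXd-titled replicates had 301, 276 and 292 CPM. Every treated library is far under every PBS library, and the treated groups share 1 range. Means were 597 ± 47.6, 305 ± 39.1 and 289.9 ± 12.6 CPM, with log2 fold changes of -0.96 (SE 0.13), -1.04 (SE 0.09) and -1.01 (SE 0.09). Red cell precursors also carry TFRC. Of 5 erythroid markers, 2 were listed, with summed levels of 0.133 to 0.920 CPM in PBS and 0.345 to 1.23 CPM in treated libraries.

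STEAP1 (ENSG00000164647.4; chromosome 7, 89783689 to 89794143 as listed) is a prostate-enriched surface protein of the STEAP family, whose other members reduce iron and copper. Its levels were 60.5, 69.8 and 75.5 CPM in PBS replicates. P-DXd-titled replicates had 56.6, 49.7 and 59.9 CPM, and T-DXd-titled replicates had 44.1, 49.2 and 50.3 CPM. The lowest PBS library lies just above the highest P-DXd-titled library. Means were 68.6 ± 7.54, 55.4 ± 5.18 and 47.9 ± 3.31 CPM, and the log2 fold changes of -0.29 (SE 0.12), -0.52 (SE 0.11) and -0.41 (SE 0.10) were all under the fold change minimum. Of 50-base windows of its transcript, 23.8% also occur in STEAP1B, which had 8 to 46 counts per library, so an unknown part of the reads counted for STEAP1 may belong to that copy.

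Among 16 other STEAP and iron genes, 6 rose, 1 fell and 9 were not called, with a median log2 fold change of 0.24. STEAP4, a metalloreductase of the plasma membrane, rose from 3.35 to 24.1 and 20.3 CPM (2.72, SE 0.25, adjusted p 1.38e-05), whereas STEAP2 was 82.1, 80.9 and 72.3 CPM (-0.10, SE 0.21, adjusted p 0.711) and STEAP3 was 66.2, 71.6 and 67.0 CPM (0.07, SE 0.14, adjusted p 0.695). SLC40A1, the iron exporter ferroportin, rose from 1.37 to 5.86 and 5.57 CPM (2.06, SE 0.25, adjusted p 7.67e-05). SLC39A14, a zinc and iron importer, was the gene that fell, from 215 to 127 and 116 CPM (-0.82, SE 0.08, adjusted p 1.61e-05). TF, the ligand transferrin, was at most 0.283 CPM in group means and was called with a log2 fold change of 1.80 (SE 0.64, adjusted p 0.0338), a call lost without PBS replicate 1 or 2 (adjusted p 0.0879 and 0.124) or P-DXd-titled replicate 1 or 2 (0.0630 and 0.0578). Over all its 14 alternatives the adjusted p ranged from 0.0102 to 0.124, and without PBS replicate 3 its value was 2.80. TFR2, the other transferrin receptor, was 0.190, 0.162 and 0.212 CPM (-0.01, SE 0.44, adjusted p 0.988).

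MET (ENSG00000105976.10; chromosome 7, 116312444 to 116438440 as listed) encodes the receptor tyrosine kinase for hepatocyte growth factor. PBS replicates had 212, 273 and 284 CPM. P-DXd-titled replicates had 358, 312 and 329 CPM, and T-DXd-titled replicates had 322, 323 and 316 CPM. All treated libraries are above all PBS libraries, and PBS replicate 1 is the lowest. Means were 256 ± 38.5, 333 ± 23.1 and 320.1 ± 3.99 CPM, and the log2 fold changes were 0.39 (SE 0.14), 0.32 (SE 0.12) and 0.35 (SE 0.09), under the fold change minimum.

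Of 14 other genes of MET signalling, 5 rose, 3 fell and 6 were not called, with a median log2 fold change of 0.10. The ligand HGF rose from 1.25 to 2.45 and 2.60 CPM (1.02, SE 0.24, adjusted p 0.00492). SPINT1 and SPINT2, inhibitors of the proteases that activate it, rose by 1.09 (SE 0.18, adjusted p 0.000496) and 0.93 (SE 0.10, adjusted p 2.86e-05), to 638 and 713 CPM in P-DXd-titled xenografts. The activator HGFAC, at 0.418 CPM in PBS, fell by 2.69 on the log2 scale (SE 0.48, adjusted p 0.000859). CBL, the ubiquitin ligase that marks MET for degradation, fell from 108 to 46.1 and 44.4 CPM (-1.25, SE 0.08, adjusted p 3.54e-06), and MST1, the ligand of the related receptor MST1R, fell from 3.24 to 1.43 and 1.22 CPM (-1.30, SE 0.24, adjusted p 0.000988). MST1R itself was 77.6, 74.3 and 74.3 CPM (-0.06, SE 0.08, adjusted p 0.499).

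CD276 (ENSG00000103855.13; chromosome 15, 73976307 to 74006859 as listed) encodes B7-H3, an immune checkpoint ligand that is common on prostate cancer. Its levels were 146.0, 190.3 and 174 CPM in PBS replicates. P-DXd-titled replicates had 239.6, 207 and 255 CPM, and T-DXd-titled replicates had 233, 232 and 251 CPM. The highest PBS library lies below the lowest treated library, P-DXd-titled replicate 2. Means were 170.1 ± 22.4, 234 ± 24.2 and 239 ± 10.6 CPM, and the log2 fold changes were 0.47 (SE 0.14), 0.49 (SE 0.11) and 0.47 (SE 0.09), under the fold change minimum.

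Of 8 other B7 family ligands tested, 3 rose, 2 fell and 3 were not called, with a median log2 fold change of 0.59. PDCD1LG2, which encodes PD-L2, rose from 7.14 to 15.4 and 16.7 CPM (1.17, SE 0.12, adjusted p 3.29e-05). C10orf54, which encodes VISTA, rose from 6.02 to 11.0 and 11.1 CPM (0.88, SE 0.17, adjusted p 0.00126). VTCN1, which encodes B7-H4 and is a conjugate target too, was called with 0.98 (SE 0.37, adjusted p 0.0406). That call was lost in 7 of 9 fits that each left out 1 library, all but those without PBS replicate 3 and P-DXd-titled replicate 2, where its value was 1.69 without PBS replicate 3. The adjusted p of VTCN1 ranged from 0.000963 to 0.141 over its 15 alternatives. NCR3LG1, a ligand of an activating receptor of NK cells, fell from 7.07 to 1.74 and 1.98 CPM (-1.92, SE 0.26, adjusted p 0.000152), and HHLA2 fell from 0.188 to 0.0152 and 0.0138 CPM (-3.56, SE 0.80, adjusted p 0.0033). The value of HHLA2 rests on 18 to 22 counts in PBS and 0 to 3 in treated libraries, and it was -4.23 when P-DXd-titled replicate 3 was left out and -4.20 when T-DXd-titled replicate 1 was. CD274, which encodes PD-L1, was 21.6, 29.4 and 28.6 CPM (0.43, SE 0.09, adjusted p 0.0029), under the fold change minimum as CD276 was.

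**Figure D3:**
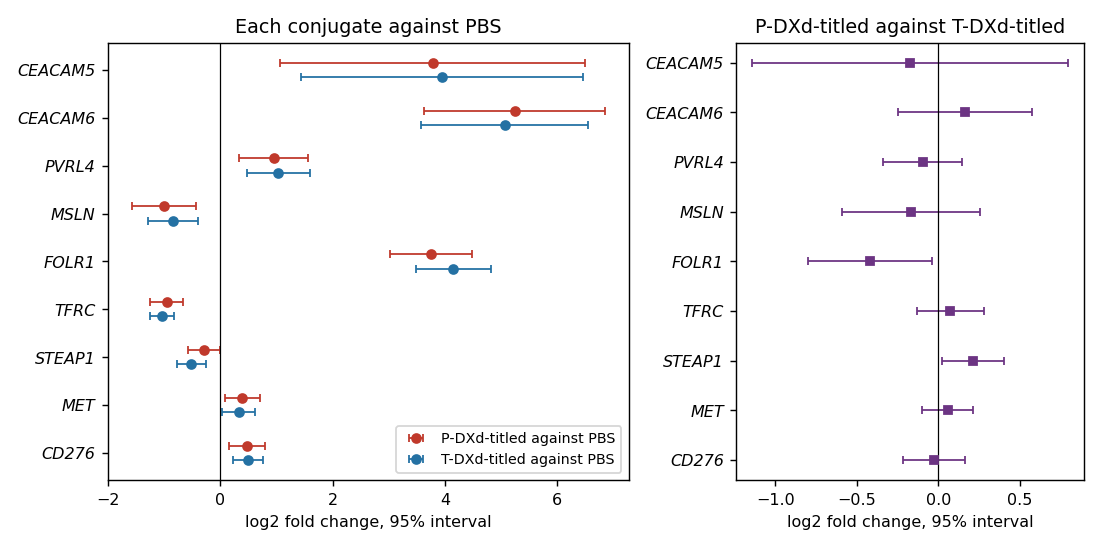
Log2 fold changes with 95% intervals, unadjusted (horizontal axes), for the 9 antigens (vertical axes), each conjugate against PBS on the left and the conjugates against each other (P-DXd-titled over T-DXd-titled) on the right. On the left the values range from 5.24 (CEACAM6) to -1.01 (MSLN) for P-DXd-titled and from 5.06 (CEACAM6) to -1.04 (TFRC) for T-DXd-titled libraries. On the right they lie between -0.42 (FOLR1) and 0.21 (STEAP1).

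The comparisons with PBS share the 3 PBS libraries, so the treated groups were also compared directly, as the conjugates were given at the same dose. Of 9 antigens, 0 were called, where 0.0273% of 14653 genes were, and 0 had groups that did not overlap, where 8.08% of genes had. Across all genes 540 had an unadjusted p under 0.05 in edgeR, and DESeq2 called 24. The log2 difference of P-DXd-titled minus T-DXd-titled was -0.42 for FOLR1 (95% interval -0.80 to -0.04) and 0.21 for STEAP1 (0.02 to 0.40). For TFRC it was 0.07 (-0.13 to 0.28), for MET 0.06 (-0.10 to 0.22) and for CD276 -0.03 (-0.22 to 0.16). For PVRL4 it was -0.09 (-0.34 to 0.15). These intervals are unadjusted and describe antigens chosen on the same levels, so nothing is concluded from whether they include 0. They were wider for MSLN, at -0.17 (-0.59 to 0.26), and CEACAM6, at 0.16 (-0.25 to 0.57), and widest for CEACAM5, at -0.17 (-1.14 to 0.79).

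To compare the antigens with each other, CPM was divided by the length of the canonical transcript in kilobases. In PBS xenografts the order was TFRC (119 CPM per kilobase), STEAP1 (56.3), CD276 (51.6), MET (37.6), PVRL4 (9.72), MSLN (3.75), CEACAM6 (0.516), FOLR1 (0.377) and CEACAM5 (0.0185). STEAP1 and CD276 had ranges that overlapped, as had CEACAM6 and FOLR1, and the other neighbours were separate. Over all treated libraries the order was CD276 (71.7), TFRC (59.3), MET (47.9), STEAP1 (42.4), PVRL4 (19.2), CEACAM6 (18.5), FOLR1 (5.90), MSLN (1.97) and CEACAM5 (0.279). In P-DXd-titled libraries CD276 and TFRC, MET and STEAP1, and CEACAM6 and PVRL4 had overlapping ranges, and in T-DXd-titled libraries no neighbours did. CD276 thus took the place of TFRC at the head, and CEACAM6 came next to PVRL4. Among 15685 genes, CEACAM6 moved from rank 12034 in PBS to 4095 in treated xenografts.

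The levels were then set beside 64 other conjugate antigens, 73 in all. In PBS xenografts TFRC had rank 7, STEAP1 16, CD276 18 and MET 23. In treated xenografts CD276 had rank 12, TFRC 14, MET 17 and STEAP1 20. PVRL4 went from rank 41 to 30, CEACAM6 from 55 to 32, FOLR1 from 58 to 46, CEACAM5 from 71 to 61 and MSLN from 46 to 51. The targets of the conjugates given had 23.0 CPM per kilobase in PBS and 69.5 in treated xenografts for ERBB2, which encodes HER2, and 9.91 and 16.9 for ERBB3, which encodes HER3. On this scale TFRC, STEAP1, CD276 and MET were above ERBB2 in PBS xenografts, and after treatment only CD276 was above it in its mean, with overlapping ranges (62.9 to 77.3 against 62.2 to 81.4). FOLH1, which encodes the prostate-specific membrane antigen that PC3 cells are known to lack, was at most 0.0657 CPM in group means and was not tested.

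**Figure D4:**
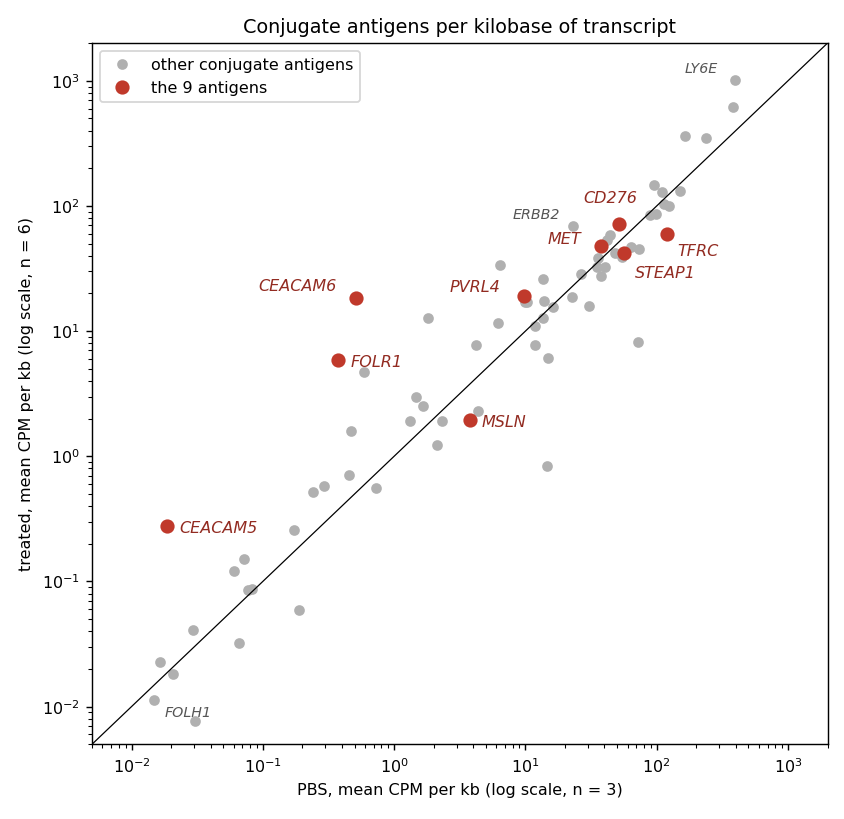
Mean CPM per kilobase of transcript of 73 conjugate antigens in PBS (horizontal axis, log scale, n = 3) and in all treated libraries (vertical axis, log scale, n = 6), with the 9 antigens in red, the others in gray and a line of equal levels. CEACAM6, FOLR1 and CEACAM5 lie far above the line, from 0.516 to 18.5, 0.377 to 5.90 and 0.0185 to 0.279, and TFRC, STEAP1 and MSLN lie below it.

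Of those other antigens, 59 were tested with all treated libraries, of which 18 rose, 8 fell and 33 were not called, where 15.2% of all genes rose and 17.1% fell. Their median log2 fold change was 0.13, where the 9 antigens had 0.47 and all genes -0.014. The rises that were largest were in SLC44A4, a choline transporter-like protein (1.54 CPM in PBS, then 12.6 in P-DXd-titled tumors and 11.6 in T-DXd-titled tumors, with a log2 fold change of 2.97, SE 0.28, adjusted p 1.71e-05), PSCA, the prostate stem cell antigen (1.78, 11.9 and 13.2 CPM, 2.81, SE 0.42, adjusted p 0.000306), and GPNMB, a lysosomal and surface glycoprotein (17.0, 74.2 and 106 CPM, 2.40, SE 0.60, adjusted p 0.00606). CA9, a carbonic anhydrase, fell furthest, from 22.7 to 0.987 and 1.58 CPM (-4.14, SE 0.37, adjusted p 1.34e-05). F3, which encodes tissue factor, fell from 166 to 21.1 and 16.7 CPM (-3.13, SE 0.33, adjusted p 3.61e-05, and -2.31 without PBS replicate 1), and CD70 fell from 13.7 to 6.20 and 4.86 CPM (-1.30, SE 0.16, adjusted p 7.38e-05). ERBB2 rose by 1.60 (SE 0.20, adjusted p 9.74e-05). ERBB3 was called with 0.77 (SE 0.24, adjusted p 0.0192) but without PBS replicate 1 was 0.45, under the fold change minimum. For protein, the paper reports from immunohistochemistry that HER2 was lower and mainly in the cytoplasm after T-DXd. After P-DXd it describes HER2 at the membrane as similar to vehicle, with high cytoplasmic staining in some cells. HER3 protein was reported as higher after either conjugate. CEACAM6, CEACAM5 and FOLR1 had log2 fold changes above those of all 59. Because the 9 antigens were chosen with these levels in view, nothing is read from this order or from their median.

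For each antigen, the genes with the most similar pattern of log2 CPM over the 9 libraries were found among 15069 others, as a description in which the libraries share their groups and depth. CEACAM6 was most like CSF1 (Pearson r 0.998), PPL (0.997) and BDNF (0.997), and CEACAM5 most like TMBIM4, STX7 and its neighbour CEACAM3 (0.983 each). FOLR1 was most like KLF2 (0.997), TTC19 (0.996) and PLA2G15 (0.996), and PVRL4 most like AP003774.4 (0.998), SOD3 (0.994) and RTN4RL1 (0.994). TFRC was most like CAMSAP2 (0.994), SLC39A14 (0.993) and UVSSA (0.992). MET was most like FAM8A1 (0.998), PTPLB (0.997) and SLC35A5 (0.995), and CD276 most like TMUB2 (0.990), SLC38A7 (0.989) and the protein-coding gene listed as hsa-mir-1199 (ENSG00000141854.3, 0.985). The values were lower for MSLN, which was most like HK1 (0.969), SDPR (0.965) and FDFT1 (0.962), and for STEAP1, most like TMEM19 (0.956), AIM1 (0.955) and OTUD4 (0.949).

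The library with the most skeletal muscle RNA was left out last. Without P-DXd-titled replicate 2, in which summed skeletal muscle markers were 3688 CPM, the log2 fold changes of all other treated libraries against PBS were 5.22 for CEACAM6, 4.02 for CEACAM5, 4.01 for FOLR1, 1.04 for PVRL4, 0.51 for CD276 and 0.36 for MET. They were -0.98 for TFRC, -0.86 for MSLN and -0.40 for STEAP1.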

How the data were processed

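The deposited tables hold raw counts per gene, and the authors state that reads were trimmed with Cutadapt, aligned with STAR and counted with featureCounts. Removal of mouse reads and use of strand in counting are not given in the sources used here. The 2 tables hold 16098 and 16114 genes, each with at least 5 counts in at least 2 libraries, and PBS counts are identical in both. Groups follow the sample titles, with 3 libraries each. The labels give each library its own code without saying that it was a separate animal, so p-values measure the spread between libraries, which may in part be technical. The 9 antigens and the gene lists were chosen with earlier results of these data known.

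Counts were fitted with edgeR 4.0.16 in R 4.3.3 (TMM, filterByExpr, two-sided quasi-likelihood test, Benjamini-Hochberg adjustment over all genes tested). Each comparison used its own libraries. CPM uses TMM-adjusted sizes of all 9 libraries, and values are mean ± SD. Canonical transcript lengths are from GENCODE v44, found for 15869 genes. Promoter sequences are RefSeq GRCh38.p14. Named were the antigens, their closest relatives and partners, up to 3 called rises and 3 called falls per list, reference antigens including the targets of the conjugates given, and 3 most similar genes by log2 CPM (prior count 2). CYP2S1, DEDD2, RABAC1, S100A9 and STEAP1B were named after their values were seen. Some genes that this rule would name are not reported here, and they stay in the counts of the gene lists. The method was also run on counts simulated from its own fitted dispersions, with fewer genes changed than were called against PBS. That run cannot show how well the model describes these libraries, and nothing is read from it. Alternatives were DESeq2 1.42.0, other scalings and filters, no fold change minimum, 1 joint fit, a block on a digit of that code and leaving out each library. Of columns of sample values, 0 were left unused.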

Additional observations from a re-analysis of the deposited data

How the results depend on the processing

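Against PBS, the 9 antigens kept their signs in 366 of 366 refits over the 3 comparisons, and between the conjugates in 110 of 117. The count against PBS could hardly come out otherwise. The antigens were chosen with these levels in view, and each had its treated levels wholly on one side of PBS. Nothing is read from that count. It holds no value of CEACAM5 under the filter of at least 10 counts in every library, which PBS replicates 1 and 2 did not reach. With all treated libraries, the log2 fold changes ranged from 4.69 to 5.54 for CEACAM6, 3.78 to 4.16 for FOLR1, 0.74 to 1.18 for PVRL4 and -1.07 to -0.96 for TFRC. In that comparison the value of CEACAM5 was 3.30 to 3.36 without PBS replicates 2 or 1. It moved there by over 1.5-fold only without PBS replicate 3, which held 21 of its 22 counts in PBS. For P-DXd-titled against PBS, CEACAM5 was also 4.61 with a block on a digit of the title's code, against 3.78 in the main fit.

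Leaving out 1 library at a time gave 1857 to 3936 called genes for P-DXd-titled against PBS, lowest without P-DXd-titled replicate 3 and 2464 without replicate 2. The range was 2820 to 4641 for T-DXd-titled against PBS, lowest without T-DXd-titled replicate 3, and 4204 to 5239 for all treated libraries. Between the conjugates it was 0 to 8, DESeq2 called 24 genes and the fit of all 9 libraries called 0. With no fold change minimum, 8398 genes were called with all treated libraries. Of conjugate antigens, 26 were called, and 24 to 31 when 1 library was left out.

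Values near 0 changed sign when 1 library was left out: STEAP2 ranged from -0.37 to 0.11, STEAP3 from -0.13 to 0.19, MST1R from -0.12 to 0.0087 and TFR2 from -0.17 to 0.17. TFR2 was 0.0093 with no filter and 0.0211 with the replicate block. The causes were not tested.

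A block on the digit before the point in each title's code called 3519, 3398, 4630 and 3 genes in the 4 comparisons and 25 conjugate antigens. Libraries of the same digit did not deviate together (correlations -0.11 to 0.11 over 13 pairs, against -0.20 to 0.17 over 14 pairs of different digits), so the digit was not taken as a pairing. The fold changes of CEACAM5, CEACAM3 and FOLR1 rest on few counts in PBS, although the PBS libraries were the deepest.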
